A study of Homo sapiens with 13 samples.

Results

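The genes described here code for the pre-B-cell receptor (pre-BCR) and the proteins that carry its signal: VPREB1 and IGLL1, CD79A and CD79B, SYK, BTK and BLNK, and the surface proteins CD22 and MS4A1 (CD20). These 9 genes were taken by name, and each was read from the probe set that is annotated to that gene alone and has the highest mean over the arrays. They are 9 of 18568 genes measured in 13 cell lines of acute lymphoblastic leukemia (ALL). The lines fall into 2 lineages, of which B-cell precursor ALL (BCP-ALL) has the lines 697, Nalm6, REH, RS4,11, Nalm16 and Nalm30 (n = 6). BCP-ALL was set against T-cell ALL (T-ALL), with the lines ALL-SIL, CCRF-CEM, HPB-ALL, Jurkat, Molt4, P12-ICHIKAWA and TALL-1 (n = 7). All lines were untreated and grown under the same conditions, and each was hybridized once to an Affymetrix HG-U133 Plus 2.0 array. Each line is a leukemic clone that has long been grown in culture, so the spread within a lineage is the spread between clones, with no repeat of any line.

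During B-cell development, a precursor that has rearranged its immunoglobulin heavy chain gene first displays that chain with a surrogate light chain, made of the VPREB1 and IGLL1 proteins. This complex is the pre-BCR. Its signal leaves through CD79A and CD79B, whose cytoplasmic tyrosine motifs are phosphorylated by SRC-family kinases and bound by SYK. SYK phosphorylates the adaptor BLNK, which brings BTK and phospholipase C gamma together and so leads to calcium release. CD22 recruits phosphatases that dampen the signal, and MS4A1 appears later than the surrogate light chain in normal B-cell development. Early T-cell precursors use a different receptor, the pre-T-cell receptor, with the CD3 chains, ZAP70, LCK, LAT and LCP2 in the corresponding places.

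Values are log2 of the deposited signal plus 16, so that 4 is the lowest value possible, and a value below 5 is called near the floor. At the floor a level cannot be told from background, and a difference against lines at the floor understates the difference in signal. The floor also narrows the spread of such lines, and that spread enters the SE, the interval and the p-value. The arrays had medians of 5.05–5.37 in BCP-ALL lines and 5.15–5.32 in T-ALL lines. P12-ICHIKAWA and TALL-1 had nearly the same profile over all probe sets (r = 0.993, against 0.959 for the next closest pair, Nalm16 and Nalm30). Whether P12-ICHIKAWA and TALL-1 are independent lines was not tested. Results were therefore also computed with that pair averaged, and with Nalm16 and Nalm30 averaged as well. Jurkat and Molt4, at 0.956, were not averaged. Defining markers followed the labels. Of 4 B-precursor markers measured, 3 were higher in BCP-ALL, with summed levels of 11.79–12.73 in BCP-ALL lines and 6.32–7.89 in T-ALL lines. Of 8 T-precursor markers, 6 were higher in T-ALL and 7 were near the floor in every BCP-ALL line, with summed levels of 8.29–8.62 in BCP-ALL and 12.28–13.78 in T-ALL. None of the 3 myeloid and 3 NK markers tested passed in limma, also without adjustment or by the exact permutation test, whereas 2 of 3 plasma cell markers tested, SDC1 and XBP1, were higher in BCP-ALL. The summed myeloid markers were 7.94–12.20 in BCP-ALL and 7.92–8.50 in T-ALL, with MPO at 12.11 in REH and LYZ at 11.20 in Nalm6.

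Of the 9 genes, 8 were higher in BCP-ALL than in T-ALL (limma, Benjamini-Hochberg adjusted p at most 0.05 over 12560 genes), and MS4A1 was not called. Over all genes tested, 3.67% were called higher in BCP-ALL. The difference of BCP-ALL minus T-ALL had a median of 3.69 log2 units over the 9 genes and of -0.03 over all genes tested. For 6 genes (CD79A, CD79B, IGLL1, BLNK, BTK and CD22) every BCP-ALL line lay above every T-ALL line, which held for 1.82% of all genes (the reverse, every T-ALL line above every BCP-ALL line, held for 1.88% of all genes and for none of the 9). All 9 genes passed the filter on low values (above the array median in at least 3 lines). BLNK, BTK, CD22 and MS4A1 passed it only through BCP-ALL lines. VPREB1 and SYK, each above that median in 1 T-ALL line, also needed BCP-ALL lines to pass. The counts of 8 and 6 genes are therefore a description of the genes and not independent support. The count was 8 when each line was left out in turn and when the closely similar pairs were averaged.

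**Figure D1:**
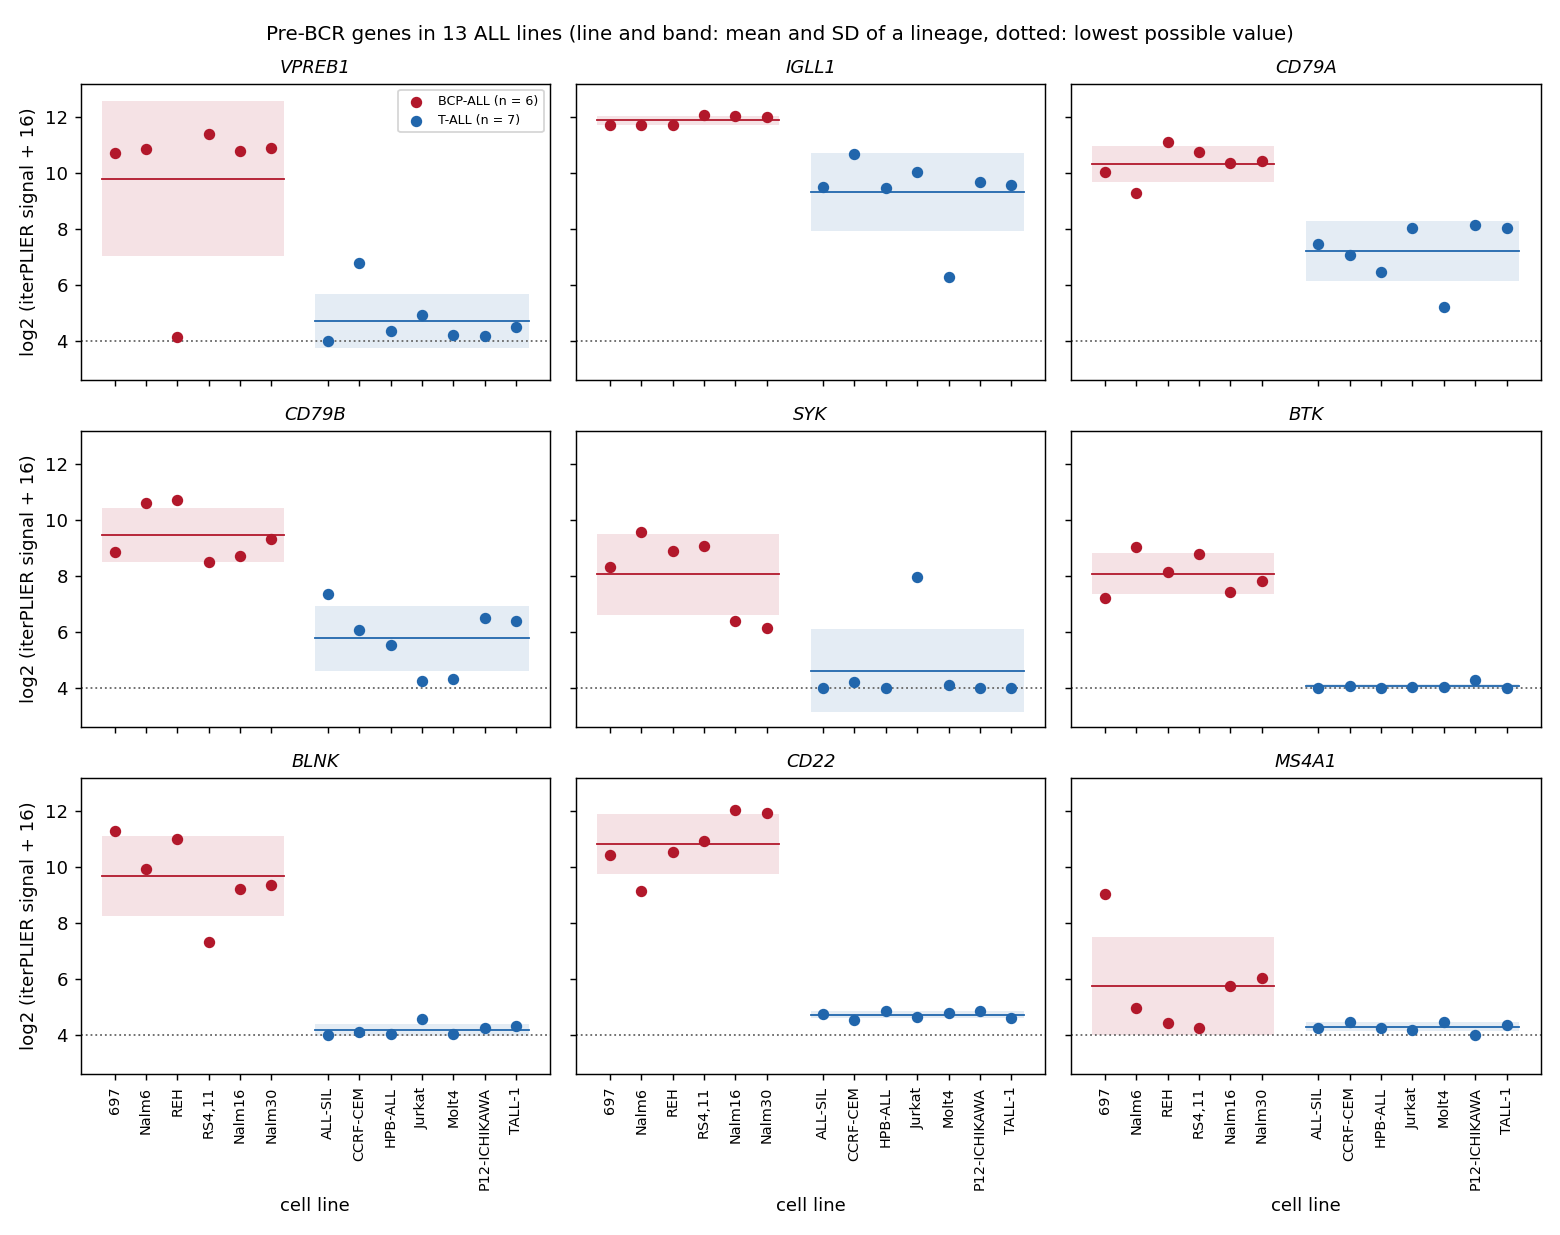
Values of the 9 genes in each of the 13 lines, as log2 of the signal plus 16 on the y axis, with BCP-ALL lines in red on the left and T-ALL lines in blue on the right. Horizontal lines and bands are the mean and SD of each lineage (n = 6 and n = 7), and the dotted line is the floor at 4. REH lies at 4.15 for VPREB1 among BCP-ALL lines of 10.70 and above, and Jurkat lies at 7.98 for SYK among T-ALL lines at or near the floor.

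VPREB1 and IGLL1, the surrogate light chain genes, were both higher in BCP-ALL, VPREB1 with the exception of REH. VPREB1, on chromosome 22, had a lowest value of 4.15, a median of 10.83 and a highest value of 11.38 in BCP-ALL lines, against 4.0, 4.33 and 6.77 in T-ALL lines. The lowest BCP-ALL value was that of REH, and the other 5 lines lay between 10.70 and 11.38. The highest T-ALL value was that of CCRF-CEM, and the other T-ALL lines were near the floor, so REH fell within the T-ALL range and the lineages overlapped. VPREB1 averaged 9.80 ± 2.78 in BCP-ALL and 4.70 ± 0.96 in T-ALL (SD), a difference of 5.10 (SE 1.01, 95% interval 2.92–7.28, limma adjusted p = 0.00738). Without REH the difference was 6.23 (adjusted p = 9.05e-07).

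IGLL1, also on chromosome 22, was almost level across BCP-ALL lines, with a lowest value of 11.71, a median of 11.87 and a highest value of 12.08. In T-ALL lines it had a lowest value of 6.27, a median of 9.58 and a highest value of 10.68, so no T-ALL line was near the floor. Unlike BTK, BLNK and CD22, IGLL1 thus differed between lineages that both carried a measurable signal. REH, near the floor for VPREB1, had IGLL1 at 11.71. Molt4 was the lowest T-ALL line and CCRF-CEM, which also had the highest VPREB1 value of that lineage, was the highest. The means were 11.88 ± 0.18 in BCP-ALL and 9.32 ± 1.41 in T-ALL, a difference of 2.56 (SE 0.54, 95% interval 1.41–3.72, limma adjusted p = 0.0102), and without Molt4 it was 2.06 (adjusted p = 6.63e-05). Because IGLL1 is related in sequence to the immunoglobulin lambda constant genes, it was not tested whether its probe set reads only IGLL1.

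CD79A and CD79B, which form the signaling pair of the receptor, were both higher in BCP-ALL with no overlap. CD79A, on chromosome 19, had values of 9.28, 10.39 and 11.10 (lowest, median and highest) in BCP-ALL lines, against 5.21, 7.46 and 8.15 in T-ALL lines. Nalm6 was the lowest BCP-ALL line and lay 1.13 log2 units above P12-ICHIKAWA, the highest T-ALL line. The means were 10.32 ± 0.63 in BCP-ALL and 7.20 ± 1.07 in T-ALL, a difference of 3.12 (SE 0.46, 95% interval 2.13–4.11, limma adjusted p = 0.000921). Molt4 was the lowest T-ALL line, as it was for IGLL1, and its CD79A value of 5.21 lay just below the median of its array (5.22). In the second CD79A probe set Molt4 was near the floor, at 4.84.

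CD79B, on chromosome 17, had values of 8.51, 9.10 and 10.72 in BCP-ALL lines, against 4.25, 6.08 and 7.36 in T-ALL lines. REH (10.72) and Nalm6 (10.63) stood above the other BCP-ALL lines (8.51–9.32). ALL-SIL was the highest T-ALL line, and Jurkat and Molt4 were near the floor, at 4.25 and 4.31. The means were 9.46 ± 0.97 in BCP-ALL and 5.77 ± 1.16 in T-ALL, a difference of 3.69 (SE 0.55, 95% interval 2.51–4.88, limma adjusted p = 0.000964). The order of lines was not shared between the partners: Nalm6 was the lowest BCP-ALL line for CD79A and the second highest for CD79B, and Jurkat was the lowest T-ALL line for CD79B but was at 8.05 for CD79A.

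Promoter sequence was looked up as a description of these genes, and why 8 of them were higher in BCP-ALL was not tested. RefSeq promoter windows (GRCh38.p14, 250 bases before the start site) were found for 7 of the 9 genes. The E-box CAGGTG, read on either strand (CACCTG on the other), is a sequence that E2A proteins, regulators of early B-cell genes, are known to bind. It was present in the windows of CD79A, VPREB1, IGLL1, BLNK and SYK, 5 of 10 windows of these genes, and in 17.5% of all 35116 windows. The windows of BTK and CD22 did not hold it. Windows of 4 genes that hold the E-box are shown, in the direction of transcription and with the E-box in capitals. They stand for the surrogate light chain, a signaling chain and the adaptor. They lie at chr19:41877029-41877278 on the plus strand (CD79A), chr22:22244536-22244785 on the plus strand (VPREB1), chr22:23580291-23580540 on the minus strand (IGLL1) and chr10:96271570-96271819 on the minus strand (BLNK).
CD79A: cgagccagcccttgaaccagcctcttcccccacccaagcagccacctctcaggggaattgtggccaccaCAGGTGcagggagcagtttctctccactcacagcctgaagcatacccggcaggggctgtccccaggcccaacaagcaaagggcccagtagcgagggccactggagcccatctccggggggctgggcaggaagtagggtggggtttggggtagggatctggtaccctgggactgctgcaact
VPREB1: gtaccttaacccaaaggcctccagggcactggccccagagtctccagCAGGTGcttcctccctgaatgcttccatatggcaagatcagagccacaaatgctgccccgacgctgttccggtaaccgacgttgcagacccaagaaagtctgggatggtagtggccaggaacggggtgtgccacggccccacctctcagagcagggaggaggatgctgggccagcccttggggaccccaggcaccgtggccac
IGLL1: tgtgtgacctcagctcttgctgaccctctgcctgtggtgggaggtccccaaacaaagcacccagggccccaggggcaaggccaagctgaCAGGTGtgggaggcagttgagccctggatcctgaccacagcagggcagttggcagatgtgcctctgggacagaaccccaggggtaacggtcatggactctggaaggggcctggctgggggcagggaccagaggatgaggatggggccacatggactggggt
BLNK: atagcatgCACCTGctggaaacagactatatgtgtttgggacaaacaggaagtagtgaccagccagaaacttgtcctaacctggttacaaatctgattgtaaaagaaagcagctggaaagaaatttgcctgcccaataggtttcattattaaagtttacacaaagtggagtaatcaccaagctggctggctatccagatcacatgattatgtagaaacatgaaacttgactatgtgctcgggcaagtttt
The E-box began 181 bases before the start in CD79A, 203 in VPREB1, 161 in IGLL1 and 242 in BLNK. The CD79A E-box overlapped the RUNX core, searched as TGTGGT and on the strand shown here as its reverse complement. That core was also present in IGLL1 and in 11% of all windows. The ETS-type PU.1 box GAGGAAGT was found in the windows of SYK and BTK and in 2.17% of all windows, on either strand. The E-box CAGCTG was found in BLNK (14% of all windows), and the IKAROS core TGGGAA in SYK (20.8%). The EBF1 palindrome (1.06%), the octamer ATTTGCAT (1.63%), TATAAA (10.7%) and the FOXO sequence TGTTTAC (2.98%) were not in these windows. These matches describe letters in the window and are not evidence of binding.

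The kinases SYK and BTK and the adaptor BLNK were at or near the floor in most T-ALL lines. BLNK, on chromosome 10, had values of 7.32, 9.64 and 11.29 in BCP-ALL lines, against 4.0, 4.10 and 4.55 in T-ALL lines. The lowest BCP-ALL line, RS4,11, was still 2.77 log2 units above the highest T-ALL line, Jurkat. The means were 9.69 ± 1.44 in BCP-ALL and 4.18 ± 0.21 in T-ALL, a difference of 5.51 (SE 0.50, 95% interval 4.43–6.59, limma adjusted p = 9.78e-06).

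BTK, on chromosome X, had values of 7.21, 7.97 and 9.05 in BCP-ALL lines, against 4.0, 4.01 and 4.26 in T-ALL lines. All 7 T-ALL lines were near the floor, and 697, the lowest BCP-ALL line, lay 2.94 log2 units above them. The means were 8.07 ± 0.74 in BCP-ALL and 4.05 ± 0.10 in T-ALL, a difference of 4.02 (SE 0.27, 95% interval 3.44–4.60, limma adjusted p = 4.95e-07).

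SYK, on chromosome 9, was the kinase gene whose lineages overlapped. It had values of 6.15, 8.60 and 9.58 in BCP-ALL lines, against 4.0, 4.0 and 7.98 in T-ALL lines. The high T-ALL value was that of Jurkat, which lay above Nalm16 (6.39) and Nalm30 (6.15), whereas the other 6 T-ALL lines lay between 4.0 and 4.21. The means were 8.06 ± 1.45 in BCP-ALL and 4.61 ± 1.49 in T-ALL, a difference of 3.45 (SE 0.74, 95% interval 1.85–5.05, limma adjusted p = 0.0125). Without Jurkat the difference was 4.01 (adjusted p = 0.000644). The Jurkat signal was also present in 2 other SYK probe sets, at 7.46 and 7.63, and the fourth probe set, dim in all lines, had 4.76 in Jurkat.

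CD22, on chromosome 19, was higher in BCP-ALL with no overlap. In the probe set used, its values were 9.14, 10.74 and 12.05 in BCP-ALL lines, against 4.53, 4.75 and 4.86 in T-ALL lines. Nalm16 (12.05) and Nalm30 (11.94) were the highest lines and Nalm6 the lowest of BCP-ALL, and all T-ALL lines were near the floor. The means were 10.84 ± 1.08 in BCP-ALL and 4.72 ± 0.12 in T-ALL, a difference of 6.13 (SE 0.38, 95% interval 5.31–6.95, limma adjusted p = 2.08e-07).

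MS4A1, on chromosome 11, did not pass the test. Its values were 4.24, 5.35 and 9.04 in BCP-ALL lines, against 4.0, 4.26 and 4.48 in T-ALL lines. The signal belonged mainly to 697 (9.04), with Nalm30 at 6.04 and Nalm16 at 5.74, and the remaining 3 BCP-ALL lines were near the floor, as were all T-ALL lines. The means were 5.74 ± 1.77 in BCP-ALL and 4.29 ± 0.17 in T-ALL, a difference of 1.46 (SE 0.61, 95% interval 0.15–2.77, limma adjusted p = 0.156). The exact two-sided permutation test gave p = 0.0175, not adjusted for the number of genes. 697 was the highest line in each of the other 3 MS4A1 probe sets too, at 9.09, 7.46 and 7.68, whereas Nalm16 and Nalm30 were near the floor in all 3.

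**Figure D2:**
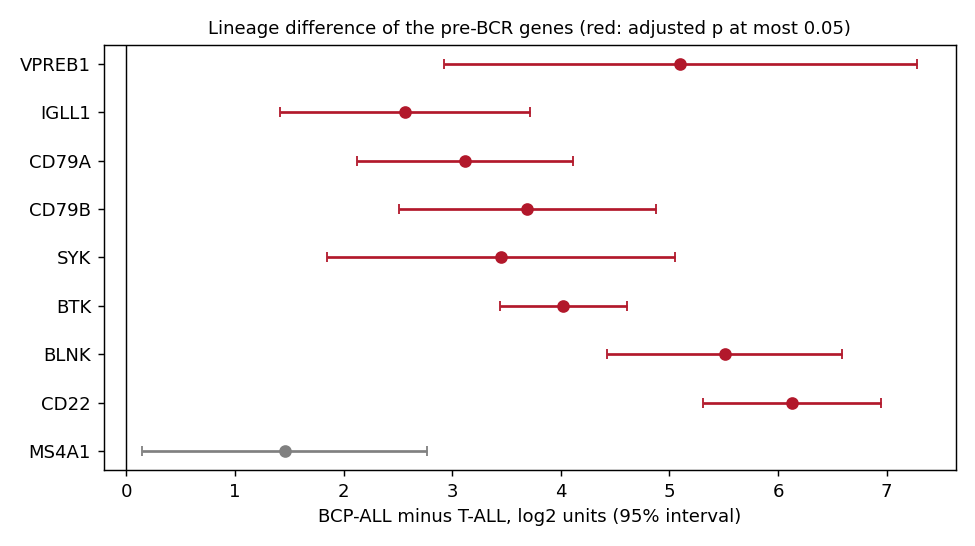
Difference of BCP-ALL (n = 6) minus T-ALL (n = 7) for the 9 genes, on the x axis in log2 units, with 95% intervals from limma. Differences called at an adjusted p of at most 0.05 are red. MS4A1, in gray, has an interval of 0.15–2.77 but an adjusted p of 0.156. The CD22 difference, 6.13 in the probe set plotted, was 4.35 by the median over the gene's probe sets.

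Other probe sets of the same genes mostly gave the same picture. The 9 genes had 21 probe sets in all, and all 21 had a higher mean in BCP-ALL than in T-ALL. VPREB1, IGLL1, BLNK and BTK had only 1 probe set, so no second reading of them was possible. The second CD79A probe set gave a difference of 3.04, and 2 of the other CD22 probe sets gave 4.52 and 4.25, below the 6.13 of the one used (4.35 by the median over the gene's probe sets). The exceptions were dim probe sets. Both further CD79B probe sets, with means of 4.31 and 4.92 over the lines, gave differences of 0.11 and 0.10, and the dim SYK probe set gave 0.79. The fourth CD22 probe set gave 1.47, and the further MS4A1 probe sets gave 0.97, 0.85 and 0.55.

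**Figure D3:**
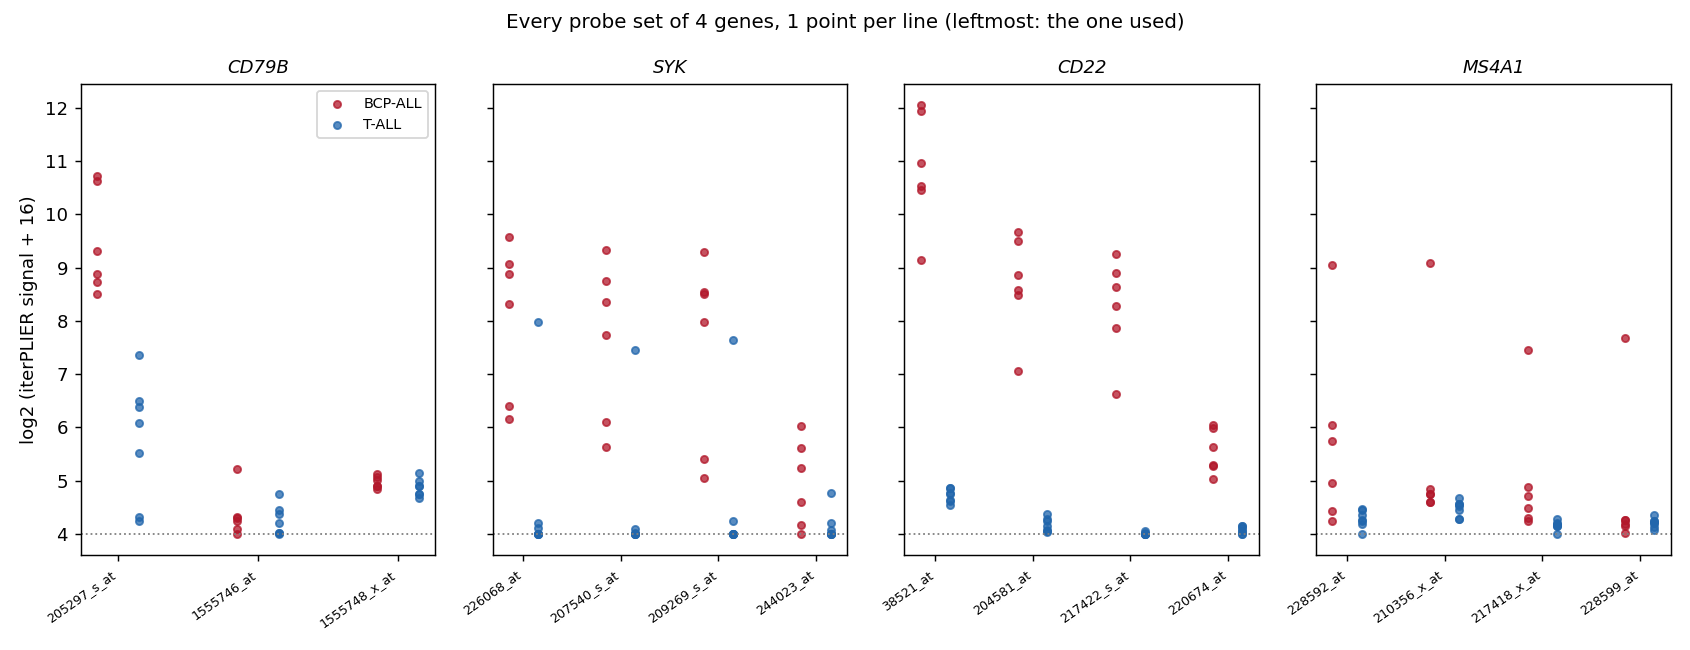
Values of every probe set of CD79B, SYK, CD22 and MS4A1, as log2 of the signal plus 16, with 1 point per line, BCP-ALL in red left of T-ALL in blue, and the probe set used at the left of each panel (dotted line, the floor at 4). The single high T-ALL value of SYK, Jurkat at 7.98, recurs at 7.46 and 7.63, and the single high MS4A1 value of 697 recurs in each MS4A1 probe set.

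Within the BCP-ALL lineage the genes did not rank the lines in a common order. Over all 13 lines, each of the 36 pairs of genes had a positive Pearson correlation (0.331–0.924, median 0.763), which is set largely by the lineage difference that the genes share. Over the 6 BCP-ALL lines 14 of 36 correlations were positive, with a median of -0.191, and over the 7 T-ALL lines 20 of 36 were positive, with a median of 0.055. Each point is 1 array of 1 line, and with so few lines these values are descriptive only. The most negative pair in BCP-ALL was SYK with CD22 (r = -0.888): Nalm16 and Nalm30 were lowest for SYK and highest for CD22, and Nalm6 was highest for SYK and lowest for CD22. The most positive was IGLL1 with CD22 (r = 0.749). Nalm16 and Nalm30 have closely similar profiles, as do Jurkat and Molt4, and P12-ICHIKAWA and TALL-1 are more alike still. The correlations within each lineage therefore count closely similar lines as if they were separate.

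In T-ALL lines the 9 genes fell into those with a measurable signal and those without. IGLL1 was above 5 in all 7 lines, CD79A was so in the probe set used (Molt4 fell below 5 in the other), and CD79B was so in 5 of 7. VPREB1 was above 5 only in CCRF-CEM and SYK only in Jurkat. BLNK, BTK, CD22 and MS4A1 were near the floor in all 7. Molt4 had the lowest value of the lineage for IGLL1 and CD79A and was near the floor for CD79B.

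The other chains that join the receptor differed in the same direction where they passed. Of 4 tested, 2 were higher in BCP-ALL and none was higher in T-ALL by limma (3.96% of all genes were), also without adjustment or by the exact permutation test. IGHM, the mu heavy chain that the surrogate light chain pairs with, ranged over 10.19–11.86 in BCP-ALL lines and 4.32–6.91 in T-ALL lines, a difference of 5.83 (SE 0.44, limma adjusted p = 1.52e-06). VPREB3, which associates with newly made mu chain, was at 6.65–11.05 in BCP-ALL and 4.36–4.74 in T-ALL, a difference of 4.58 (adjusted p = 0.000136). REH, near the floor for VPREB1, was the lowest BCP-ALL line for IGHM, at 10.19, still above every T-ALL line. IGKC, the kappa light chain of the mature receptor, did not pass (difference 0.66, adjusted p = 0.286). IGHD, the delta heavy chain, did not pass either (1.12, adjusted p = 0.373), and its highest value, 11.10, was in 697, the line that also carried most of the MS4A1 signal.

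Among 23 further proximal kinases, adaptors and enzymes that were tested, 6 were higher in BCP-ALL, 1 was higher in T-ALL and 16 passed in neither direction, with a median difference of -0.06. The SRC-family kinase LYN, which phosphorylates CD79A and CD79B, was at 6.58–9.58 in BCP-ALL lines and 4.0–4.31 in T-ALL lines, a difference of 4.18 (limma adjusted p = 5.62e-06). BLK, another kinase of that family, differed by 3.13 (adjusted p = 0.00379). The adaptor LAT2, also known as NTAL, had the largest difference of the list, 6.19 (adjusted p = 2.47e-07), with 9.08–11.37 in BCP-ALL and 4.0–6.0 in T-ALL, and the docking protein GAB1 differed by 2.69 (adjusted p = 0.00802). The others to pass were PLCG2, the phospholipase C gamma of B cells (2.22, adjusted p = 0.0210), and PIK3CD, a phosphoinositide 3-kinase subunit (1.57, adjusted p = 0.0214), both chosen for mention after their values were seen. PIK3CD was at 9.23–9.56 in BCP-ALL lines and 7.05–9.75 in T-ALL lines, and its highest value was that of ALL-SIL, a T-ALL line. NCK1, an adaptor that links receptors to the cytoskeleton, was lower in BCP-ALL by -1.38 (adjusted p = 0.0394). GRB2 (-0.02) and HCLS1 (-0.06), adaptor proteins of many lymphoid cells, had the smallest differences.

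Of 16 inhibitory receptors and phosphatases tested, 2 were higher in BCP-ALL, 3 were higher in T-ALL and 11 passed in neither direction. DOK3, an adaptor that restrains B-cell receptor signaling, was at 9.24–10.40 in BCP-ALL lines and 4.52–6.19 in T-ALL lines, a difference of 4.86 (limma adjusted p = 1.07e-07). INPPL1, an inositol phosphatase, differed by 1.36 (adjusted p = 0.0104). CD5, an inhibitory receptor of T cells and some B cells, was near the floor in every BCP-ALL line and differed by -3.92 (adjusted p = 5.61e-07). The phosphatase PTPN22 (-2.27, adjusted p = 3.40e-05) and the adaptor DOK2 (-2.07, adjusted p = 0.00139) were also lower in BCP-ALL. The smallest differences were those of LILRB1 (0.05) and DOK1 (0.08).

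The calcium, protein kinase C, NF-kB and RAS branch lies further downstream and is shared with the T-cell receptor. None of its 23 genes tested was called higher in BCP-ALL by limma (3.67% of all genes were, a share that corresponds to less than 1 gene in 23), 1 was higher in T-ALL and 22 passed in neither direction, with a median of -0.50. At an unadjusted p of at most 0.05, 4 were higher in BCP-ALL and 7 in T-ALL by limma, and 3 and 7 by the exact permutation test. Over all genes tested, 3173 of 12560 reached that p by limma, in either direction. STIM1, the calcium sensor of the endoplasmic reticulum, was at 5.13–7.16 in BCP-ALL lines and 6.76–7.65 in T-ALL lines, a difference of -1.32 (adjusted p = 0.0270). RASGRP2 (-0.01) and MAPK3 (0.16) had the smallest differences.

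Among 10 B-lineage surface partners tested, 3 were higher in BCP-ALL and 7 passed in neither direction (at an unadjusted p, 1 was higher in T-ALL by limma and none by the exact permutation test). CD24, a glycoprotein of B-cell precursors, was at 9.53–12.20 in BCP-ALL lines and 4.33–5.96 in T-ALL lines, a difference of 6.60 (limma adjusted p = 1.41e-07). The interleukin 7 receptor chain IL7R, which supports growth of lymphoid precursors, was at 10.59–11.61 in BCP-ALL and 4.01–9.97 in T-ALL (difference 5.49, adjusted p = 0.000964). The tetraspanin CD9 differed by 5.17 (adjusted p = 3.16e-05). SPN (-0.10) and CD40 (0.24) had the smallest differences.

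Of 15 regulators of pre-BCR genes tested, 8 were higher in BCP-ALL and 7 passed in neither direction, with a median of 2.02. At an unadjusted p, 1 was higher in T-ALL, by limma and by the exact permutation test. PAX5, the factor that holds cells in the B lineage and acts on CD79A, was at 10.52–11.27 in BCP-ALL lines and 4.02–4.59 in T-ALL lines, a difference of 6.44 (limma adjusted p = 4.81e-12). EBF1, which acts with it, differed by 6.19 (adjusted p = 4.71e-10). TCF4, an E protein that binds E-boxes such as CAGGTG, differed by 4.18 (adjusted p = 0.00222), and FOXO1 by 4.01 (adjusted p = 9.15e-07). TCF3, the gene of the E2A proteins themselves, was at 9.20–10.53 in BCP-ALL and 9.06–10.01 in T-ALL and did not pass (0.36, adjusted p = 0.344). LEF1 had the smallest difference (0.06) and lay at 11.19–11.98 in BCP-ALL and 11.12–12.17 in T-ALL.

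The T-cell counterparts ran in the opposite direction, with 7 of 10 tested higher in T-ALL, 3 passing in neither direction and a median of -3.34. At an unadjusted p none was higher in BCP-ALL, by limma or by the exact permutation test. CD3D (-7.88, limma adjusted p = 7.00e-13), CD3E (-6.01, adjusted p = 8.75e-13) and CD3G (-4.51, adjusted p = 4.19e-07), the CD3 chains, were near the floor in every BCP-ALL line. The signaling chain CD247 differed by -3.96 (adjusted p = 1.79e-05) and the adaptor LAT by -4.05 (adjusted p = 2.30e-05). The kinases were less clear cut. LCK, at 6.92–10.03 in BCP-ALL lines and 10.33–12.11 in T-ALL lines, differed by -2.73 (adjusted p = 0.00241). ZAP70, the T-cell relative of SYK, was at 4.31–8.62 in BCP-ALL and 8.63–10.49 in T-ALL and differed by -2.14 (adjusted p = 0.0444), and its lowest value was that of REH. LCP2, which takes the place of BLNK in T cells, did not pass (-2.12, adjusted p = 0.0521). Its lineages still did not overlap, with 4.22–8.29 in BCP-ALL and 8.44–9.65 in T-ALL. PLCG1 (-0.75, adjusted p = 0.250) and PTCRA, the pre-T-cell receptor alpha chain (-0.32, adjusted p = 0.417), did not pass either. Every T-ALL line lay above every BCP-ALL line for 8 of the 10 genes, against 1.88% of all genes. CD3D, CD3E and CD3G passed the filter on low values only through T-ALL lines, so these counts are a description and not independent support. Jurkat, the T-ALL line with SYK signal, had ZAP70 at 9.94.

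**Figure D4:**
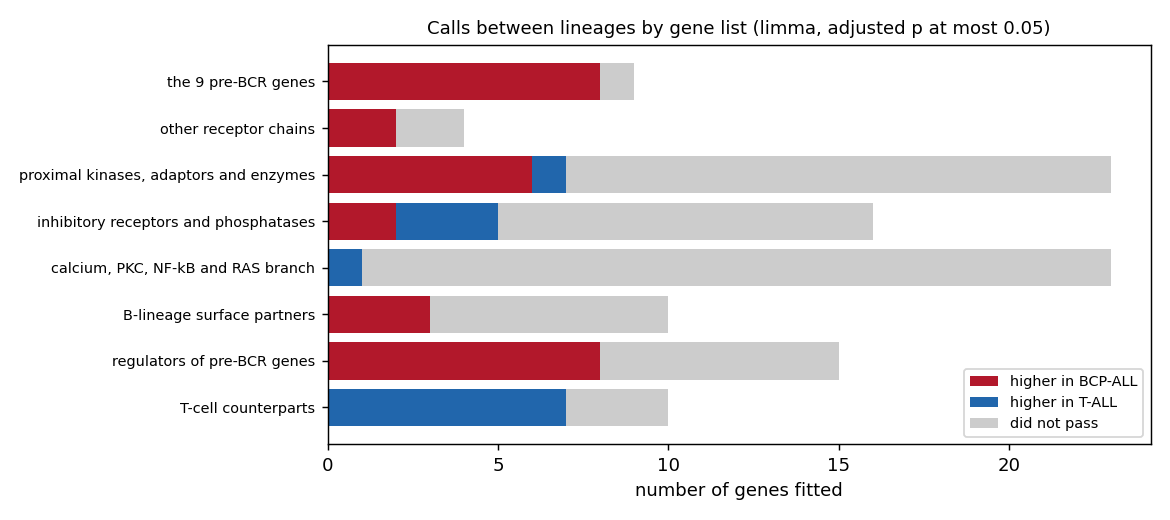
Number of genes tested in the 9 described genes and in 7 further lists, on the x axis, split into those higher in BCP-ALL (red), higher in T-ALL (blue) and passing in neither direction (gray), by limma at an adjusted p of at most 0.05. The 9 genes hold 8 that were higher in BCP-ALL, the downstream branch holds none of 23, and the T-cell counterparts hold 7 of 10 that were higher in T-ALL.

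The genes whose pattern was most like each of the 9 were taken by Pearson correlation over the 13 lines, among genes tested. The lines share their lineage, so any gene with a lineage difference scores high, and the informative cases are those with an exceptional line. For VPREB1 the most alike were IRF4 (r = 0.963), KRT79 (0.962) and MT1F (0.938). IRF4, a transcription factor induced by pre-BCR signaling, was at 4.73 in REH, between 7.94 and 9.19 in the other BCP-ALL lines, and at or near 4.0 in every T-ALL line, so it shared the low value of REH with VPREB1.

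For IGLL1 the most alike were GUSBP11 (r = 0.976), IGLL3P (0.942) and IGLC1 (0.926), all on chromosome 22. By RefSeq order, 2 annotated genes lie between IGLL1 and GUSBP11, 37 between IGLL1 and IGLC1 and 63 between IGLL1 and IGLL3P. Molt4 was the lowest line for all 4 genes, with GUSBP11 at 4.60 there and at 7.25–11.14 in the other 12 lines. IGLL3P and IGLC1 are related to IGLL1 in sequence, and whether their probe sets read separate transcripts was not tested. Other measured genes near IGLL1 were looked up after these values were seen. SMARCB1 was at 8.99 in Molt4 and 8.55–9.84 in the other lines, and CHCHD10 at 9.01 in Molt4 and 7.95–9.77 in the others. Molt4 was the lowest line, by a small margin, for DERL3 (13 between, 5.38, against 5.44 in the next lowest line). It was also lowest for VPREB3 (7 between, 4.36, against 4.39). VPREB3 was near the floor in every T-ALL line, so that rank cannot be read. For the rest of the genes looked up around IGLL1, apart from GUSBP11, Molt4 was not the lowest line. Next to VPREB1, BMS1P20, with 2 annotated genes between, was at 7.28 in REH and 5.91–7.36 in the other lines. The lambda variable gene IGLV1-44, with 13 between, was at 8.19 in REH and 9.07–11.34 in the other BCP-ALL lines. Over all lines other than REH, of both lineages, the IGLV1-44 median was 6.71 and the lowest value was near the floor. IGLV6-57, with 7 between, was near the floor in every line, so its level in REH cannot be ranked against the others.

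For CD79A the most alike were CPNE2 (r = 0.935), DGKD (0.918) and GUSBP11 (0.906). For CD79B they were the kinase gene STK38 (0.938) and the class II genes HLA-DPB1 (0.915) and HLA-DRA (0.911), whose products present antigen. For BLNK they were VPREB3 (0.994), NPY (0.977) and HLA-DPB1 (0.975). 697 and REH were the highest lines and RS4,11 the lowest BCP-ALL line for BLNK and also for VPREB3 (11.05, 10.40 and 6.65). For SYK they were GPSM1 (0.916), FMNL2 (0.910) and TSPAN14 (0.899), and GPSM1 shared the highest T-ALL value in Jurkat, at 7.05. For BTK they were CD163L1 (0.991), HLA-DRA (0.983) and WDFY4 (0.981). For CD22 they were the calcium sensor STIM2 (0.994), CHST15 (0.986) and ENG (0.985). For MS4A1 they were ALDH1A1 (0.974), IL12RB2 (0.951) and PRR32 (0.941), and these rest on 697: ALDH1A1 was at 9.94 in 697 and at or below 5.44 in every other line.

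**Figure D5:**
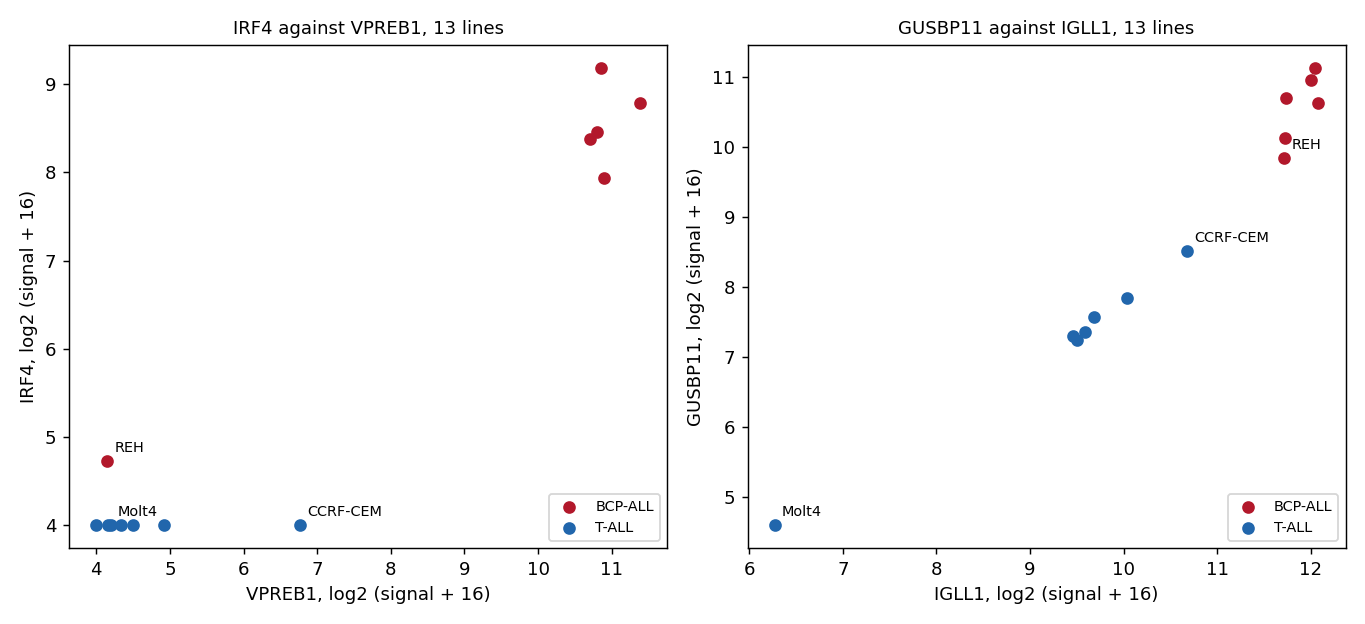
IRF4 against VPREB1 (left) and GUSBP11 against IGLL1 (right), as log2 of the signal plus 16 on each axis, with 1 point per line, BCP-ALL in red and T-ALL in blue. REH lies among the T-ALL lines on the left (VPREB1 4.15, IRF4 4.73), and Molt4 lies apart on the right (IGLL1 6.27, GUSBP11 4.60).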

How the data were processed

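Total RNA of 13 untreated ALL lines was hybridized to HG-U133 Plus 2.0 arrays, 1 per line. The authors deposited log2 values of the iterPLIER signal plus 16, made with Affymetrix Expression Console (its version, and any scaling between arrays, are not given in the sources used here). Culture was for 30 h per the labels, whereas the methods give an overnight culture and another RNA kit. Of 42450 probe sets, 38125 had 1 gene symbol in the platform annotation, 1742 several and 2583 none. Per gene the probe set with the highest mean was kept (18568 genes), and 12560 genes above the array median in at least 3 lines were tested with limma 3.58.1 (R 4.3.3), BCP-ALL minus T-ALL, with Benjamini-Hochberg adjustment and a threshold of 0.05. Two-sided exact permutation tests (1716 arrangements, smallest p 0.00117) were an alternative. On simulated data over these 12560 genes, 48 of 100 genes changed by 1 log2 unit and 90 of 100 changed by 3 were recovered, with 10 false calls. The 9 genes, the pathway lists and the markers were chosen with earlier results of these data known, so their counts are descriptions. Genes named from a list were up to 4 with the largest positive and up to 3 with the largest negative difference that passed, up to 2 with the smallest difference, every T-cell counterpart, and for each of the 9 genes the 3 with the highest correlation. Some list genes had no probe set of their own and were not analysed here. Alternatives covered the probe set, normalization, filter, variance model, averaging of closely similar lines and leaving out each line. No line was repeated, so p-values rest on differences among lines, and precision is limited by having 13 arrays.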

Additional observations from a re-analysis of the deposited data

Results flagged for a closer look

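In 5 of 18 sets of values (9 genes in 2 lineages) the highest or lowest line was farther from its neighbor than Dixon's 95% limit allows. The limit, with a chance rate of about 1 in 20, assumes normally distributed values. For VPREB1, SYK and BTK in T-ALL, 6, 6 and 7 of 7 lines were near the floor, so that rate does not apply. The count of 5 is therefore a description only. VPREB1 was lowest in REH among BCP-ALL lines, at 4.15, and highest in CCRF-CEM among T-ALL lines, at 6.77. IGLL1 was lowest in Molt4 among T-ALL lines, at 6.27. SYK was highest in Jurkat among T-ALL lines, at 7.98. BTK was highest in P12-ICHIKAWA among T-ALL lines, at 4.26, which is near the floor and not readable as a level.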

How the results depend on the processing

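Of the 9 genes, 8 were called under every alternative run except the median over probe sets and the filter on a mean above 6, where CD79B and BTK could not be fitted and 7 were called. Leaving out 1 line gave 8 called each time and 6 to 7 that did not overlap (7 without REH or Jurkat). The pathway lists held 33 calls, and 28–39 under the alternatives. The number of genes called of all those tested, 958, was 614 with P12-ICHIKAWA and TALL-1 averaged and 476 with Nalm16 and Nalm30 averaged as well, and ranged over 614–1226 when 1 line was left out, lowest without TALL-1 (628 without P12-ICHIKAWA) and highest without REH. Dim probe sets, fitted without the filter, did not pass: CD79B gave 0.11 (adjusted p = 0.805) and 0.10 (adjusted p = 0.600), and SYK gave 0.79 (adjusted p = 0.178). MS4A1, at 1.46, passed at an unadjusted p (exact permutation test 0.0175, limma 0.0319) but not after adjustment. Of the genes called, the share higher in BCP-ALL was 48.1%, 52.1% after quantile normalization and 44.5% after centring. Genes below the filter in an alternative could not be fitted. For MS4A1 this held without 697, Nalm16 or Nalm30, by the median over probe sets, with both similar pairs averaged and at a mean above 6. It held for CD79B by that median and for BTK at a mean above 6. No paired analysis was possible because the lines of the lineages are unrelated and carry no replicate numbers. Signals near the floor limit what can be read for BLNK, BTK, CD22 and MS4A1 in T-ALL.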

Other observations

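Some genes of the pathway lists that did not enter a call stood out in single lines, and all were chosen after their values were seen. PTPRC, the CD45 phosphatase that activates SRC-family kinases, was near the floor in Nalm6 (4.11), Nalm16 (4.10) and Nalm30 (4.31), at 9.99, 10.08 and 10.21 in 697, REH and RS4,11, and at 8.81–10.87 in T-ALL lines. IGLL5, a lambda-like gene next to the lambda constant cluster, was at 10.40 in Nalm6 and near the floor in the other 12 lines. Nalm6 was also the highest line for IGLC1, at 12.55, and whether the IGLL5 probe set reads only IGLL5 was not tested. CR2, a complement receptor of mature B cells, was near the floor in every BCP-ALL line and at 9.52 in HPB-ALL.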
